A study of Mus musculus with 4 samples.

Results

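The genes described here encode splicing factors and related RNA binding proteins. They were chosen by gene symbol (Hnrnp, Srsf, Sf3, Snrpa to Snrpg, U2af, Ddx, Dhx, Elavl, Celf, numbered Rbm and Rbmx, and Pabp symbols, without Snrpn), not by any measured value. The rule found 98 of the 8251 genes named on a mouse oligonucleotide array, measured by 136 of its 12488 probe sets (a probe set is a group of probes for 1 transcript). Each of 4 arrays measured hippocampal CA1 RNA from young male C57BL/6J mice, which were handled and never shocked. The arrays differ in the hour of extraction, 1, 2, 4 or 6 hr after shocked mice, not analysed here, had received their last shock. With 1 array at each hour no value has a replicate, and the hour cannot be told apart from anything else in which the arrays differ. The labels do not state the number of mice behind each array.

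In the nucleus, pre-mRNA is spliced by the spliceosome, whose small nuclear ribonucleoproteins carry a ring of Sm proteins and recognise the ends and the branch point of an intron. SR proteins bind exons and mostly promote the use of nearby splice sites, whereas hnRNP proteins coat nascent transcripts and often oppose them. DEAD-box and DEAH-box helicases remodel RNA at each step, and Elavl and Celf proteins, several of them neuronal, set splicing, stability and translation of their targets. The symbols fell into 8 classes: 22 probe sets of hnRNP genes, 16 of SR protein genes, 22 of the spliceosome core, 37 of DEAD-box genes, 8 of DEAH-box genes, 9 of Elavl and Celf genes, 17 of Rbm genes and 5 of poly(A) binding protein genes.

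The share of promoters with a given run of letters varied between classes, and 4 promoters are shown here as examples with and without it. RefSeq listed 121 promoters (250 bases before to 50 after a gene's start, build GRCm38.p6) for 87 of the 98 genes. The 6 letters CCGGAA, searched on both strands and known as the core that ETS family factors prefer, occurred in 12 of 17 spliceosome core promoters (70.6%), 7 of 12 SR protein promoters (58.3%) and 14 of 28 DEAD-box promoters (50%). They occurred in 4 of 10 DEAH-box promoters (40%), 6 of 20 hnRNP promoters (30%), 2 of 14 Rbm promoters (14.3%), 1 of 18 Elavl and Celf promoters (5.56%) and 0 of 2 poly(A) binding promoters. The 18 Elavl and Celf promoters belong to 6 genes. CCGGAA holds a CpG, and the median ratio of observed to chance CpG was 0.668 in Elavl and Celf promoters, 0.902 over all members and 0.704 over genes on the array. It was 1.03 for SR protein, 1.01 for hnRNP, 0.94 for DEAD-box and 0.921 for poly(A) binding promoters. For the spliceosome core it was 0.902, for Rbm 0.875 and for DEAH-box promoters 0.774, so the classes ranked differently by CpG and by CCGGAA. The part of CpG in the share with CCGGAA was not tested. Over all classes the count was 46 of 121 (38%), set against 22.9% of the 8413 promoters of genes on the array and 14.9% of all 32851. The letters CCAAT, searched likewise, occurred in 49.6% of member promoters, 37% of promoters of genes on the array and 37.4% of all promoters. A match is a run of letters and not a binding site. Capitals mark CCGGAA or CCAAT on either strand, and the motifs share no letter in the promoters below. Sf3a2 (chr10:80798485-80798784, plus strand) and Sf3b6 (chr12:4817358-4817657, plus strand), both of the U2 particle, are the spliceosome core genes of highest mean intensity with 1 listed promoter that holds CCGGAA. Srsf5 (chr12:80945249-80945548, plus strand) and Rbm39 (chr2:156180189-156180488, minus strand, 1 of 2 listed) are genes to which the values return.
Sf3a2: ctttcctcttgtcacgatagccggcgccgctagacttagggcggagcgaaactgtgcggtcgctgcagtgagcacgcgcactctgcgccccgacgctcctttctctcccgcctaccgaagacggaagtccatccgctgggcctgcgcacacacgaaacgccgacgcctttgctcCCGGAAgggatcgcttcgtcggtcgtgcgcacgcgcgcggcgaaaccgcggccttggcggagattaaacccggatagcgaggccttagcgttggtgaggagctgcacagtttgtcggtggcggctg
Sf3b6: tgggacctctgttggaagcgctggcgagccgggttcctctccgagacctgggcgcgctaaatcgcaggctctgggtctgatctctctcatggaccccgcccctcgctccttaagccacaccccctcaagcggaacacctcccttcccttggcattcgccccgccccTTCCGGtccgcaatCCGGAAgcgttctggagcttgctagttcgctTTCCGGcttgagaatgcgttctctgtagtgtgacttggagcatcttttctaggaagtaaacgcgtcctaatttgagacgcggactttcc
Srsf5: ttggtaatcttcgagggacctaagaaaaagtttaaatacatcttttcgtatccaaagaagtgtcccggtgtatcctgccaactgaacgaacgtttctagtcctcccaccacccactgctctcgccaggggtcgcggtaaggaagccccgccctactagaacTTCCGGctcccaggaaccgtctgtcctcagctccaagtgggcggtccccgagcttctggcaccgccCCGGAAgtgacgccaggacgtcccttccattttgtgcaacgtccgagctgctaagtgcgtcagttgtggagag
Rbm39: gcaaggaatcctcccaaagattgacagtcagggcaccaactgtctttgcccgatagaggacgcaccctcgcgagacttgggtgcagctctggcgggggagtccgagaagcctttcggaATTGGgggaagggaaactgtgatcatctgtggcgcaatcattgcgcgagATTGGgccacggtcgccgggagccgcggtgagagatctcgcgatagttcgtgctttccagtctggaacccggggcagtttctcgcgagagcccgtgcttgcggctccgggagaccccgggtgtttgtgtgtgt

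Median intensity per array lay between 173 at 2 hr and 204 at 4 hr, and 23.4% to 28.3% of values lay under the floor of 54.7, the 25th percentile of all values that are not controls, below which values were treated as having no order. The ratio of 3' to 5' signal of the Gapdh control, a sign of RNA or labelling integrity, was highest at 2 hr, at 7.56 against 4.84 to 6.25 on the other arrays. For Actb the ratio was highest at 1 hr, at 3.44 against 2.99 to 3.24, so the controls ranked the arrays differently. The 18S rRNA control read 1383, 1150, 3325 and 3381 at 1, 2, 4 and 6 hr, low on both early arrays. Of the CA1 pyramidal markers 5 of 7 were on the array and all 5 lay above the floor on all 4 arrays. Ttr, a choroid plexus marker, read 140.3, 140.3, 3217 and 196 at 1, 2, 4 and 6 hr. The other choroid plexus markers, Folr1 and Kl, were not highest at 4 hr. Folr1 read 277.8, 119.8, 206.3 and 214.3, and Kl read 54.8, 370, 266 and 247.

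Most member probe sets read above the floor, which is a cut on intensity and not a call of expression. Above the floor on all 4 arrays were 113 of 136 member probe sets (83.1%), against 61.4% of the 12422 probe sets that were not controls. Another 18 passed it on 1 to 3 arrays (13.2%, against 27% of all) and 5 on none (3.68%, against 11.5% of all). Those 5 are probe sets of Celf1, Ddx49, Dhx30, Hnrnpdl and Pabpc4, and Celf1, Dhx30, Hnrnpdl and Pabpc4 have another probe set that was above the floor on at least 1 array. The filter on mean level, above 114 on the floored scale, was passed by 113 probe sets of 90 genes (83.1% of probe sets, against 60% of all). All the tests and spreads below are over these 113. The 8 genes with no probe set above it were Celf1, Ddx4, Ddx41, Ddx49, Dhx32, Rbm6, Rbm22 and Srsf10. Ddx4 is a germ cell helicase, and it read 67.5, 93.3, 101 and 162 at 1, 2, 4 and 6 hr. It was thus above the floor on all 4 arrays, though it did not pass the filter.

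The classes differed in level, with the spliceosome core brightest. Its 21 tested probe sets had a median intensity of 1045 (middle 50% from 424 to 1426), against 451 for all 7453 tested probe sets (229 to 999). The medians of the other classes were 733 for poly(A) binding proteins, 593 for SR proteins, 569 for hnRNPs, 511 for DEAD-box and 409 for DEAH-box helicases, 377 for Rbm genes and 351 for Elavl and Celf genes. Intensity depends on the affinity of the probes as well as on the mRNA, so the order is one of signal, and the ranges of all the classes overlapped.

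**Figure D1:**
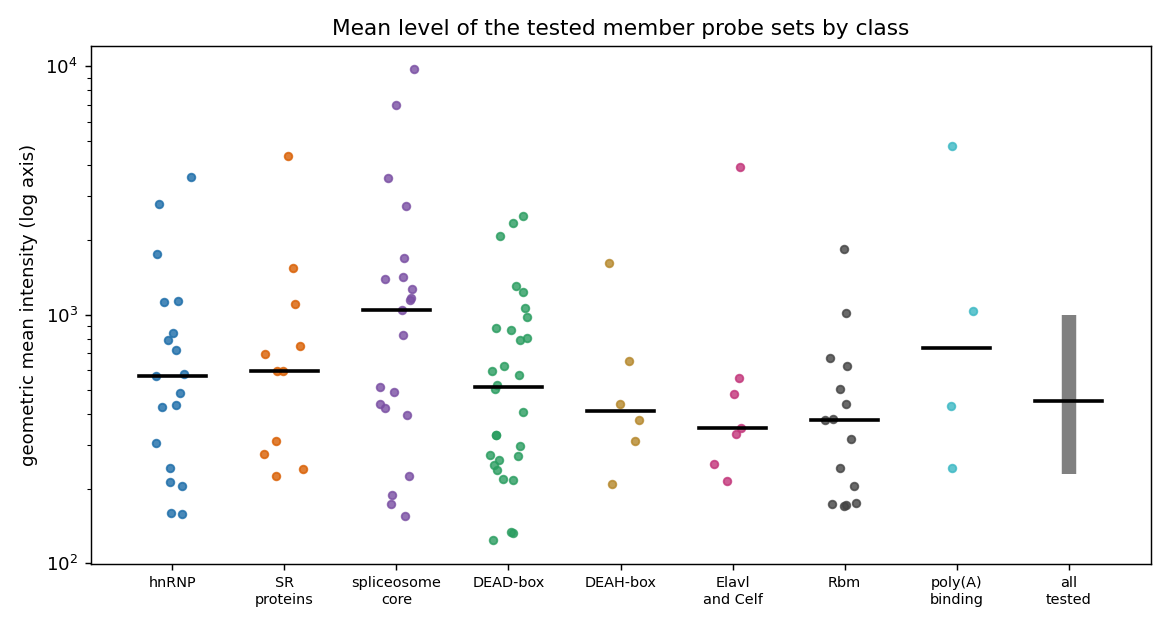
Geometric mean intensity over the 4 arrays (log axis) of each tested member probe set, by class, as points, with a black line at the class median; the grey bar is the middle 50% of all tested probe sets. Spliceosome core probe sets have the highest median, at 1045 against 451 for all tested probe sets.

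Within the core the brightest probe set was that of Snrpb, which encodes the Sm ring proteins B and B'. It read 8730.3, 8809, 10929.8 and 10619 at 1, 2, 4 and 6 hr. U2af2, the large subunit of the factor that binds the polypyrimidine tract before the 3' splice site, read 6578, 7076, 7316 and 7068. The U2af2 values lay close together, the highest 1.11-fold above the lowest, and this Snrpb probe set was higher at 4 and 6 hr than at 1 and 2 hr. It is of the kind kept with relaxed design rules (ending in r_at), and so is a second Snrpb probe set, which read 122.5, 25.2, 188.9 and 4.4 and did not pass the filter.

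Sf3a2, a subunit of the U2 particle, read 3585, 3700, 3648 and 3277 through its brighter probe set, of a kind that a gene family can share. The dimmer one, of a kind kept with relaxed design rules, read 3253, 1855, 3236 and 2875, so only that one was low at 2 hr. Of the 21 tested core probe sets, 14 were brighter than the median of all tested probe sets. Among those under it, Sf3a1 read 286, 242, 147 and 250.5, and Snrpa1 read 198, 185, 133 and 187. Among the brighter ones, Sf3b5 read 1437 to 2014, Snrpg 1279 to 1585, Snrpe 1138 to 1414, and Snrpc, a protein of the U1 particle, read 1326, 1200.2, 1104 and 979.5, the only core probe set in strictly falling order of time. The limma adjusted p of its slope was 1.00.

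The core members with the widest spread were the probe sets of Snrpb2, a U2 particle protein that helps bind the U2 stem loop. One, of a kind that a gene family can share, read 282, 104, 193 and 103, a range of 2.73-fold. The other, of the kind kept with relaxed design rules, read 617, 253, 426 and 484, a range of 2.44-fold. Both were highest at 1 hr and low at 2 hr, and only the first was also low at 6 hr. Sf3b1, the subunit that contacts the branch point, read 982, 1122, 957 and 1789 through its brighter probe set and 225, 442, 497 and 488 through its dimmer one. The brighter probe set was high at 6 hr alone, while the dimmer one was low at 1 hr alone. Snrpd3, an Sm ring protein, read 278 at 6 hr and 160 to 171 on the other arrays. U2af1, the small subunit that reads the AG of the 3' splice site, read 446, 692, 406 and 552.

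SR protein genes were led by Srsf2 (also called SC35), which read 3856, 3682, 4349 and 5753. Its other probe set, at 607, 554, 503 and 728, was highest at 6 hr as well, and both end in s_at, a code for probes shared between similar transcripts. Srsf5 read 1102, 1561, 1597 and 2034, in rising order of time, and its slope was 0.15 ± 0.07 log2 units each hour (SE, limma adjusted p = 0.972). Srsf6 was the only SR probe set with a range of at least 2-fold, at 464, 965, 804 and 870. It was low at 1 hr, and the other values lay together.

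The other SR probe sets that passed the filter spanned less than 2-fold. Srsf3, which regulates its own splicing, read 274 to 339 and 211 to 323 through its probe sets. Srsf9 read 606 to 742, Srsf11 read 962 to 1312, and the brighter Srsf4 probe set read 455, 638, 714 and 596. Srsf1, also called SF2, had 4 probe sets, of which 1 passed the filter at 196, 250, 204 and 260. Srsf10, a splicing repressor when dephosphorylated, had none that passed. One of its probe sets read 203, 147, 90.4 and 52.3 in falling order, ending under the floor, while the other read 69.2, 91.3, 26.9 and 25.1.

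Among hnRNP genes Hnrnpdl was brightest, at 3074, 3397, 3890.2 and 4111 in rising order of time (slope 0.08 ± 0.06, limma adjusted p = 1.00). A second probe set of this gene was also lowest at 1 hr, at 1005, 1100, 1225 and 1172. Hnrnpa2b1, which binds many neuronal transcripts and guides some into dendrites, read 2511, 3458, 2760 and 2565. Its dimmer probe set read 120, 151, 241 and 145, so the probe sets were highest on different arrays. Hnrnpd, also called AUF1, spanned 1.09-fold at 800 to 871. Hnrnpul2, a relative of Hnrnpu, spanned 1.08-fold at 425 to 457 through one of its probe sets.

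Many hnRNP probe sets had their highest value on the 2 hr array. The count was 9 of 19 (47.4%), against 24.4% of all tested probe sets. This was not particular to the class, since 4 of 7 Elavl and Celf (57.1%), 5 of 15 Rbm (33.3%) and 23 of 60 probe sets of other RNA binding genes (38.3%) were also highest there. Of the hnRNP probe sets 0 of 19 had their lowest value there, against 29% of all. The 9 are probe sets of Hnrnpa1, Hnrnpa2b1, Hnrnph2, Hnrnph3, Hnrnpk, Hnrnpl, Hnrnpll, Hnrnpm and Hnrnpr. Hnrnpr read 410.0, 707, 499 and 386, Hnrnph3 read 392, 624, 353 and 385, and Hnrnpll read 538, 855, 439 and 518. In each of these the 2 hr value stood above values that lay closer to one another. Hnrnpl read 142, 315, 295 and 135, high at both 2 and 4 hr, and its range of 2.33-fold was the widest of the class. Hnrnpk and Hnrnpm, each a bright member that binds pyrimidine or GU rich RNA, read 939 against 711 to 788 and 1402 against 981 to 1100.1.

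Set against the mean of the remaining 3 arrays, the 2 hr array differed by a median of 0.30 log2 units over the 19 hnRNP probe sets, against -0.01 over all tested ones. With quantile normalization these values were 0.28 and 0.04, and 10 of 19 were highest at 2 hr against 26.5% of all. When the arrays were set to a common median the 2 hr array itself moved up, to 0.21 over all tested probe sets, and the hnRNP median was 0.52, with 15 of 19 highest at 2 hr against 45% of all. No test is possible for 1 array against 3, and this count was chosen after the values were seen. At 2 hr the Gapdh ratio was at its highest and both the 18S signal and the median intensity were at their lowest, while the Actb ratio of 3.20 lay within the range of the others. CA1 pyramidal markers summed to 8754 there and to 6884 to 7315 on the other arrays. Of the 5 markers Dcn, Wfs1 and Man1a were highest at 2 hr, and Lefty1 and Pou3f1 were lowest there. Their part in the result was not tested.

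**Figure D2:**
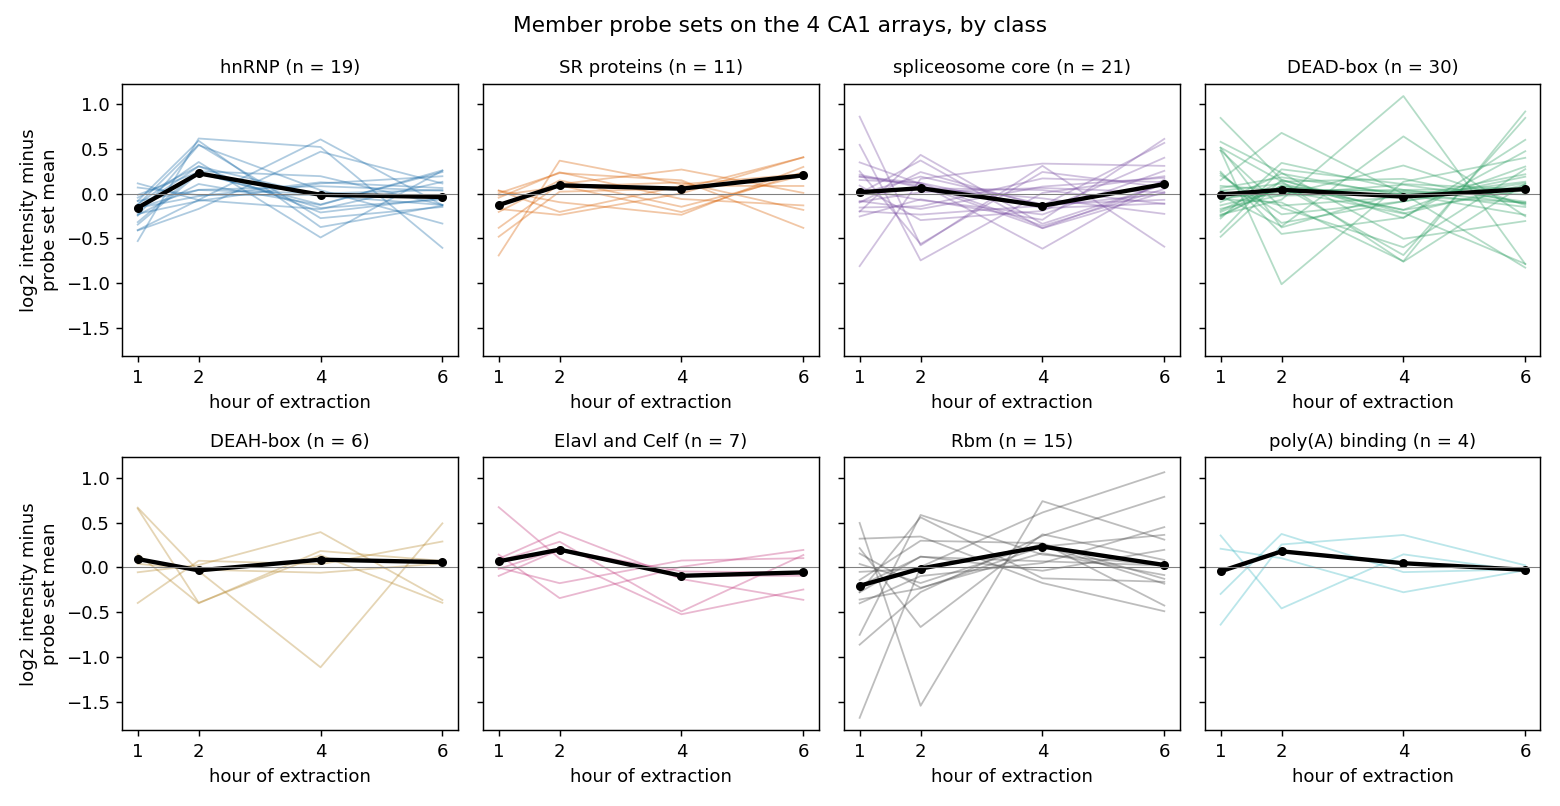
Each coloured line is 1 tested member probe set, as log2 intensity minus its own mean over the 4 arrays, against the hour of extraction, with a panel for each class; the black line is the class median. The hnRNP median peaks at 2 hr, and the Rbm panel has the deepest single low values.

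At 1 hr no SR protein or Rbm probe set was at its highest, a count chosen, and the classes joined, after the values were seen. None of their 11 and 15 probe sets was highest there, against 25.8% of all tested probe sets, and 8 of 15 Rbm and 10 of 19 hnRNP probe sets were lowest there, against 24.2% of all. For the spliceosome core, 8 of 21 were highest at 1 hr and 10 of 21 were lowest at 4 hr, against 24.3% of all. The count for SR protein and Rbm genes together, 0 of 26, was 1 of 26 with quantile normalization. Because it rests on 3 other arrays, it was 5 of 27 without the 4 hr array (35.3% of all tested probe sets), 2 of 26 without the 2 hr array (34.4%) and 2 of 27 without the 6 hr array (34.3%). Of the 4 arrays the 1 hr one gave the largest Actb and the smallest Gapdh ratio of 3' to 5' signal, and the part of these in the count was not tested.

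**Figure D3:**
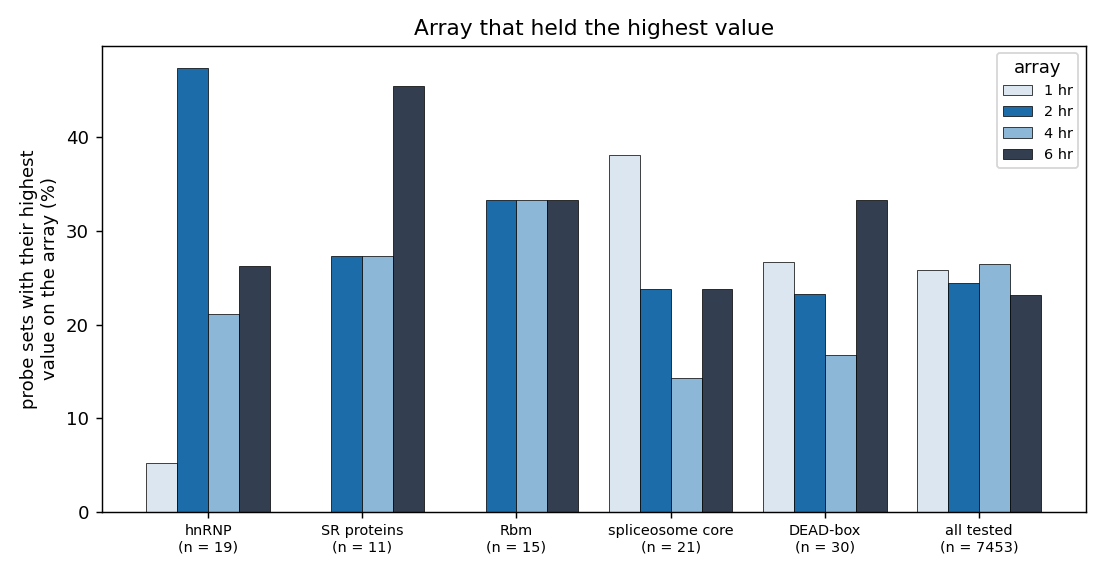
Bars give the percent of probe sets in each class whose highest value lay on the 1, 2, 4 or 6 hr array, with all tested probe sets at the right. For hnRNP genes the 2 hr bar stands at 47.4%, and SR protein and Rbm genes have no bar at 1 hr.

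No member passed the test for a straight line over the hours. With p-values adjusted by Benjamini-Hochberg over all 7453 tested probe sets, limma called 0 of the 113 members and 0% of all, and the smallest adjusted p was 0.884. At an unadjusted p under 0.05, 2 member probe sets rose (1.77%, against 2.87% of all) and 3 fell (2.65%, against 2.25%). Slopes were above 0 in 62 of 113 (54.9%, against 50.9% of all). Strictly rising order was found in 8 of 113 (7.08%, against 4% of all), and strictly falling order in 2 (1.77%, against 3.37%). Ordinary least squares also gave 0 after adjustment, with 8 members at an unadjusted p under 0.05 (7.08%, against 4.47% of all). Since each hour has 1 array, these p-values speak only of scatter around a line. That scatter may be technical or between animals, and these cannot be told apart here.

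The 5 probe sets with the smallest unadjusted p belong to 4 genes. Rbm39, a splicing factor related to U2af2, read 43.5, 176, 267 and 365 through its dimmer probe set. The slope was 0.48 ± 0.12 log2 units each hour (SE), with a limma adjusted p of 0.884. The 1 hr value lies under the floor, so the range is at least 6.67-fold, the widest among the members. Its brighter probe set read 508, 627, 694 and 916, a slope of 0.16 ± 0.06 (adjusted p = 0.965). Both were in rising order of time, and the brighter one spanned 1.80-fold. Without the 1 hr array the slope of the dimmer one was 0.26.

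Rbm14, a nuclear coactivator also found in paraspeckles, had probe sets that ran opposite ways. The dimmer one read 93.2, 140, 216 and 292, a slope of 0.32 ± 0.07 (limma adjusted p = 0.884). The brighter one, of a kind that a gene family can share, read 393, 400.0, 279 and 225, a slope of -0.18 ± 0.06 (adjusted p = 0.946). The gene therefore has no single direction on these arrays. Ddx52, a helicase of ribosome assembly in yeast, read 241, 149, 116 and 77.9 through its only probe set, a slope of -0.30 ± 0.07 (adjusted p = 0.884).

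Ddx25, a helicase best known from the testis, was the fourth. Its dimmer probe set read 451, 649, 405 and 229, a slope of -0.23 ± 0.09 (limma adjusted p = 0.963), and its brighter one read 584, 728, 611 and 582. Both were highest at 2 hr and lowest at 6 hr. Without the 6 hr array the slope of the dimmer one was -0.09.

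DEAD-box helicases included both the steadiest members and some of the most variable. Ddx24, a nucleolar helicase, read 1216, 1219, 1236 and 1282 through its brighter probe set, a range of 1.05-fold that was the smallest of all members. Its other probe set, which ends in r_at, a code for relaxed design rules, read 230, 258, 574 and 157 and stood apart at 4 hr, 2.23-fold above the nearest array. The probe sets of this gene thus have the smallest and the largest range of the class, at 1.05-fold and 3.67-fold.

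Ddx39b (UAP56), which loads the U2 particle and couples splicing to export, read 2200, 2750, 2808 and 2318. Ddx5 (p68) read 2405, 2134, 2283 and 2567, and its relative Ddx17 (p72) read 1748, 2211, 2017 and 2420.3. Ddx17 had a second probe set, of a kind that a gene family can share, at 496, 607, 505 and 705. Its high and low values were on the same arrays as those of the first. Ddx3x, a translation helicase, was steady at 1156 to 1417 through its brightest probe set, of a kind that a gene family can share. It read 323, 254, 153 and 175 through another. Ddx6, a helicase of P bodies, had 3 probe sets that were highest at 1, 6 and 2 hr. They read 1405, 1082, 582 and 1062, then 756, 737, 468 and 1489, then 386, 627, 560 and 539. The first ends in s_at and the second in r_at, and only the third has no such code. The first and second were both lowest at 4 hr, and the third was lowest at 1 hr.

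Of DEAH-box genes Dhx30, found in mitochondrial RNA granules, was brightest at 1228, 1702, 1657 and 1975. Dhx9 (RNA helicase A) hardly varied, at 452, 432, 422 and 454. Dhx36, which unwinds G-quadruplexes, read 1038, 636, 302 and 919 and stood apart at 4 hr, where it was 2.10-fold below the nearest array. Dhx15, which releases spent spliceosomes, read 595, 288, 416 and 288, high at 1 hr.

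Among Elavl and Celf genes, Celf4, Elavl2 and Elavl4 varied least. Celf4, a CELF protein of excitatory neurons, read 3701, 4534, 3830.1 and 3803 through a probe set of the kind that a gene family can share. Elavl4 (HuD) read 252, 223, 266 and 271, Elavl2 (HuB) read 347, 405, 329 and 329, and Elavl3 (HuC) read 530.1, 379, 482 and 549. Elavl1 (HuR), which most cells express, read 354, 436, 302 and 258. Celf2 read 585, 681, 397 and 614 through its brighter probe set and 342, 230, 149 and 181 through its dimmer one, both lowest at 4 hr.

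Rbm genes were led by Rbm42, at 1594, 1994, 1926 and 1865, and Rbm17 (SPF45), a splicing factor, at 1043, 900.4, 1222 and 930.1. Rbm15, which recruits the m6A methyltransferase, read 244, 59.5, 289 and 215 and stood apart at 2 hr, 3.61-fold below the nearest array, the largest such gap with all values above the floor. Rbm4b read 261, 659, 485 and 447, low at 1 hr. Rbm8a (Y14), a core protein of the exon junction complex, was steadier at 364.4, 373.8, 447.5 and 332.5. Rbmx (hnRNP G) read 160, 175, 241 and 264 through its dimmer probe set, in rising order, and 423, 325, 424 and 358 through its brighter one, in no order.

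Poly(A) binding proteins were few. Pabpc1, the main cytoplasmic form, read 5534, 5143, 3953 and 4686, lowest at 4 hr. Pabpn1, the nuclear form, read 667, 1239, 1333 and 1054, low at 1 hr, with a range of 2.00-fold. Among members in the brightest 25% of tested probe sets, only it reached 2-fold. Pabpc4 read 349, 555, 413 and 422 and Pabpc2, a testis form in mouse, read 310, 177, 268 and 235.

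Spread over the 4 arrays was close to that of other genes. The median SD of log2 values was 0.27 over the members, against 0.29 over all tested probe sets. A range of at least 2-fold was found in 26 of 113 (23%), against 25.3% of all. By class the counts were 11 of 30 for DEAD-box, 5 of 15 for Rbm, 2 of 6 for DEAH-box, 3 of 21 for spliceosome core, 2 of 19 for hnRNP, 1 of 11 for SR protein, 1 of 7 for Elavl and Celf, and 1 of 4 for poly(A) binding genes. A range of at least 3-fold was found in 7 of 113 (6.19%, against 9.94% of all). The count at 2-fold was 12 without the 1 hr array (10.6%, against 17.2% of all) and 17 without the 4 hr array (15%, against 18%).

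Spread fell steeply with level, and the classes differ in level. When tested probe sets were split by mean level into 4 groups of equal size, 11 of 21 members in the dimmest spanned at least 2-fold (60.6% of all), in the second 10 of 32 (27.6%), in the third 4 of 29 (9.72%) and in the brightest 1 of 31 (3.11%). From the dimmest group to the brightest, DEAD-box genes had 4 of 5, 5 of 9, 2 of 10 and 0 of 6. The hnRNP counts were 2 of 4, 0 of 4, 0 of 6 and 0 of 5. In the second group the spliceosome core had 2 of 3, Rbm genes 2 of 5 and DEAH-box genes 1 of 3. SR protein genes had 0 of 3 there, Elavl and Celf genes 0 of 3 and poly(A) binding genes 0 of 2. Of probe sets ending in r_at 4 of 7 members spanned 2-fold, and 42.9% of all such probe sets did. Of those with no such code 19 of 89 did, against 24% of all.

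**Figure D4:**
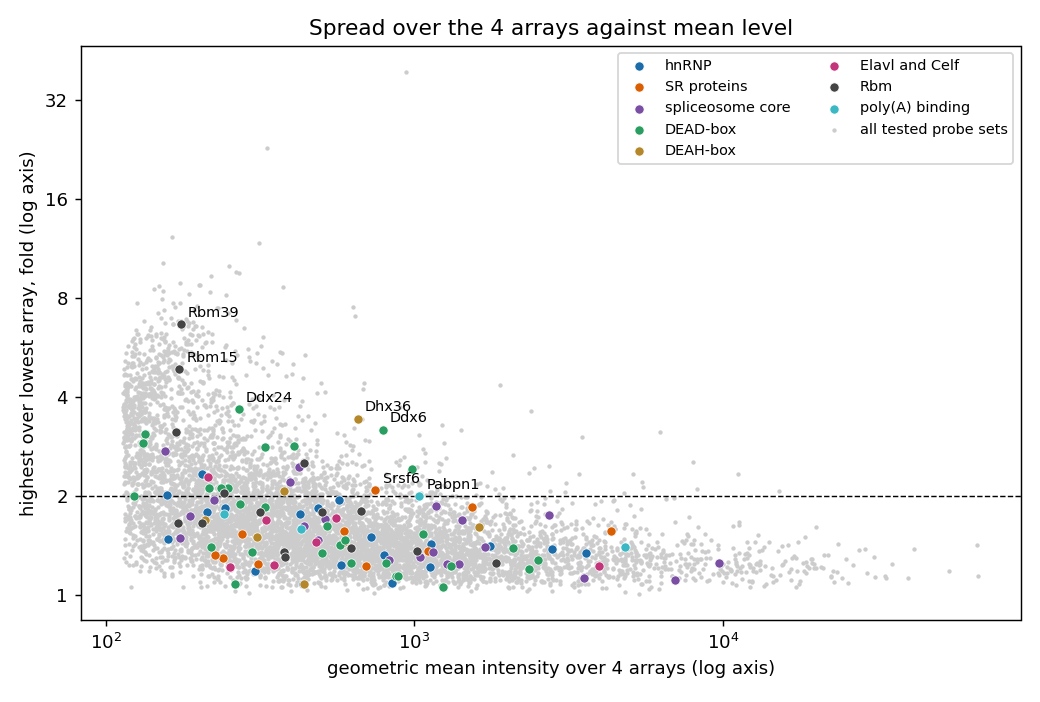
Each point is a tested probe set, with its geometric mean intensity (log axis) against the fold between its highest and lowest array (log axis); members are coloured by class, all tested probe sets are grey, and the dashed line marks 2-fold. Spread narrows with level, and Pabpn1 is the only member of the brightest 25% on or above the line.

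Standing apart on an array, at least 2-fold from each of the others in 1 direction, was found for 5 of 113 members (4.42%), against 7.53% of all tested probe sets. The 5 were the dimmer Rbm39 probe set below at 1 hr (1.82% of all), Rbm15 and a probe set of Ddx27 below at 2 hr (1.85%), Dhx36 below at 4 hr (1.17%) and the dimmer Ddx24 probe set above at 4 hr (0.309%). No member stood apart below at 6 hr (1.44% of all) or above at 1 hr (0.376%), 2 hr (0.188%) or 6 hr (0.376%). That Ddx27 probe set read 458, 163, 360 and 433, and the gene's other one, at 194 to 272, was not low at 2 hr. Both end in r_at. Without the 2 hr array 8 members stood apart (7.08%, against 9.88% of all), and without the 4 hr array also 8 (9.81% of all). Below the filter, Ddx41 read 272 at 1 hr and 26.1 to 28.4 later, at least 4.97-fold apart through its only probe set. Others below the filter were high on 1 array. A probe set of Ddx18 read 27.6, 47.1, 52.9 and 159.5, while the one of Ddx18 that passed the filter read 250.1, 270.3, 266 and 260.1. A probe set of Celf1 read 97.1, 46.3, 15.7 and 203.5, and one of Srsf1 read 54.4, 58.3, 125 and 51.3.

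Several genes were measured more than once, and the measurements often differed. Of 98 genes 31 had several probe sets, and in 22 at least 2 passed the filter. All of these probe sets had slopes of 1 sign in 11 of the 22 genes (50%), against 49.1% of the 903 genes on the array with several tested probe sets. They were highest on 1 shared array in 5 of 22 (22.7%), against 27.5%. The 5 genes are Ddx17, Ddx25, Rbm39, Snrpb2 and Srsf2. In 10 of the 11 genes whose slopes differed in sign, no slope had an unadjusted p under 0.05, and Rbm14 was the other. Of those not yet given, Ddx50, a nucleolar helicase, read 878, 1348, 1094 and 987 through its brighter tested probe set. The dimmer one of Ddx50 read 169, 263, 196 and 358, so both were lowest at 1 hr and their high values fell on different arrays. Ddx47 read 869, 865, 931 and 817 through one probe set. The other Ddx47 probe set read 805, 902, 908 and 918, in rising order. Both varied by little, so the sign of the slope separates values that lie close together. The dimmer Srsf4 probe set, of a kind that a gene family can share, read 232, 282, 229 and 218. The brighter Hnrnpul2 probe set read 624, 549, 511 and 631.

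**Figure D5:**
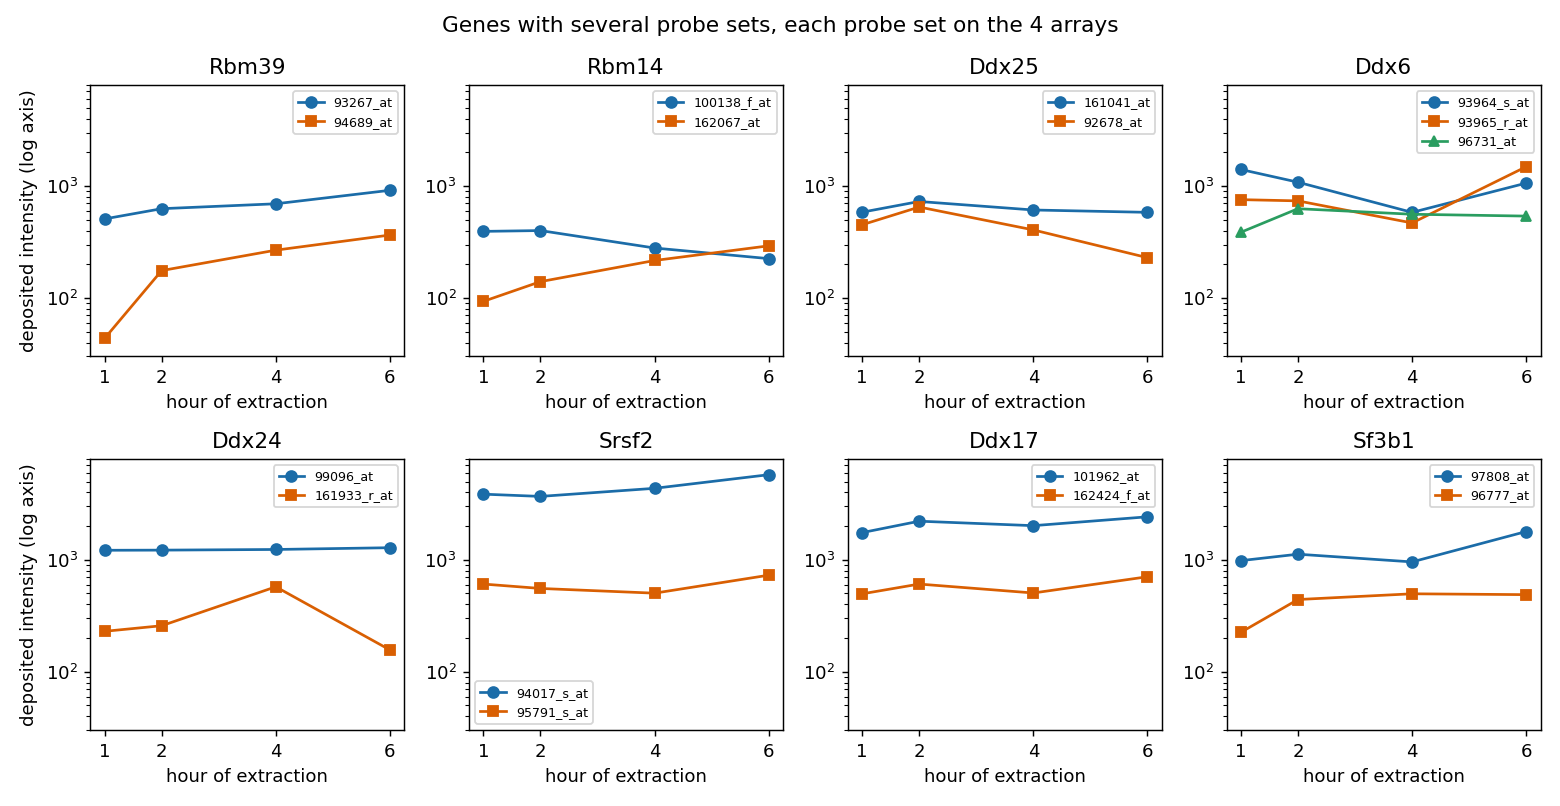
Deposited intensity (log axis) against the hour of extraction for 8 genes, with a line for each probe set. The lines of Rbm39, Ddx17 and Srsf2 have their highest points on the same array, while those of Rbm14, Ddx6 and Ddx24 do not.

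Other splicing and RNA binding genes were taken from a list of 88, of which 59 were on the array and 60 probe sets of 50 genes were tested. None passed limma's test. At an unadjusted p under 0.05, 2 rose (3.33%, against 2.87% of all tested probe sets) and 3 fell (5%, against 2.25%). A range of at least 2-fold was found in 17 of 60 (28.3%, against 25.3% of all). Ybx1, a cold shock domain protein of mRNA particles, was brightest at 13401, 11432, 10090.5 and 12512, and Pcbp1, a poly(C) binding protein, read 4497, 5621, 4484 and 4403. Clk1, a kinase that phosphorylates SR proteins, read 669, 1392, 2128 and 2003 and stood apart below at 1 hr (slope 0.29 ± 0.10, limma adjusted p = 0.946). Tia1, which binds U-rich RNA beside weak 5' splice sites, read 580, 543, 906 and 1014.

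The 3 with falling slopes were Qk, Rbfox2 and Prpf19. Qk, a regulator of myelin gene splicing, read 1380.1, 1558, 1030 and 613 through one probe set (limma adjusted p = 0.884) and 860, 1258, 860 and 863 through the other. Oligodendrocyte markers summed to 23554, 23283, 21947 and 16856, lowest at 6 hr as in the first Qk probe set. Mobp, Mbp, Cldn11 and Mog were each lowest there, whereas Mag read 425, 548, 704 and 456, lowest at 1 hr. The part of these markers in the Qk values was not tested. Rbfox2, which binds GCAUG, read 964, 567, 449 and 410.0 through a probe set ending in r_at. Its other probe set read 41.9, 71.1, 35.9 and 30.3, above the floor only at 2 hr, and did not pass the filter. Prpf19, a spliceosomal ubiquitin ligase, read 277, 153, 219 and 64.3 through a probe set of the kind that a gene family can share. The other Prpf19 probe set read 1692, 1800.4, 902 and 1125. The first had the widest range of the list, at 4.31-fold. The second widest was a probe set of Sfpq, ending in s_at, at 154, 185, 210.0 and 25.9, at least 3.84-fold. The other tested Sfpq probe sets spanned 2.41-fold and 1.61-fold, and were also lowest at 6 hr. Bulk tissue cannot tell fewer cells of a type from less RNA per cell.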

How the data were processed

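The authors deposited 1 linear intensity per probe set and array for 4 arrays; the summary method, software and scaling are not given in the sources used here. Probe sets were named from the platform annotation (10833 of 12422 that are not controls had 1 symbol), and all 136 members matched a RefSeq gene of GRCm38.p6 by Entrez identifier. The members and lists were chosen with earlier results of these data known.

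On the deposited intensity scale, a floor of 54.7 was set at the 25th percentile before log2 was taken. Tested were the 7453 probe sets above the 40th percentile of mean log2 level, by fitting a line over the hours in limma 3.58.1 (R 4.3.3, lmFit and eBayes, two-sided, 2 residual degrees of freedom, Benjamini-Hochberg at 0.05). The fit was tested on simulated data. Spread and standing apart have no test. The number of arrays limits the precision, and folds are on the floored scale. Values on all 4 arrays were given for the brightest and widest members of each class, those standing apart, those with an unadjusted p under 0.05 and genes whose probe sets disagree, and others were added after their values were seen. Protein features planned for these genes were not used here; promoter letters took their place and were chosen after seeing the data.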

Additional observations from a re-analysis of the deposited data

How the results depend on the processing

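The count of members with a trend stayed at 0 under all 15 alternatives. So did the count over all tested probe sets, and the 0 is therefore not particular to the members. The slopes of the 5 members named for their unadjusted p kept their sign wherever they were tested. The count above the floor on all 4 arrays ran from 105 of 136 with the floor at the 40th percentile (77.2%) to 123 with it at the 10th (90.4%). The share over all probe sets was counted only at the main floor, at 61.4%. Whether the members' higher share holds at the other floors was not tested. Members with a range of at least 2-fold, 26 on the deposited scale, numbered 11 with a filter at the 60th percentile (13.6%, against 10.9% of all), 15 with 1 probe set per gene (16.7%, against 22.3%), 7 at 3-fold (6.19%, against 9.94%), 37 with no filter (27.2%, against 29.1%), 32 with a common median (28.3%, against 26%), and 12 to 23 with an array left out (17.1% to 18.4% of all). Members standing apart, 5, numbered 9 with no filter (6.62%, against 9.56% of all), 2 with a filter at the 60th percentile (2.47%, against 1.65%), 26 at 1.5-fold (23%, against 21.4%), and 6 to 8 with an array left out (8.94% to 9.88% of all). The hnRNP count at 2 hr, 9, was 15 with a common median (45% of all) and 9 to 12 with another array left out (30.9% to 31.7% of all, against 24.4% with 4 arrays). With a filter at the 60th percentile it was 6 of 14 (42.9%, against 29.8% of all), a smaller gap. With no filter it was 10 of 22 (45.5%, against 18.1% of all). For SR protein and Rbm genes the count highest at 1 hr, 0, was 1 with quantile normalization (25% of all). It was 1 with the floor at the 40th percentile (25.8% of all) and 2 with no filter (25%). With another array left out it was 2 to 5 (34.3% to 35.3% of all). The cause of these moves was not tested. Members with an unadjusted p under 0.05 were fewest with 1 probe set per gene, at 3 of 90 (3.33%, against 5% of all). They were most numerous with no filter, at 12 of 136 (8.82%, against 6.3% of all). No paired analysis was possible because each hour has 1 array.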
